A study of Mus musculus with 45 samples.

Results

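The 35 autophagy genes described here are the rows of the deposited count tables whose gene symbol is one of a list of core macroautophagy genes. They are 35 of the 23227 genes with a row, and all 35 passed the filter on low counts that left 14067 genes to test. RNA came from the livers of wild type C57BL/6J mice, all 24 weeks old and all fasted overnight before the liver was taken. Poly-A RNA was sequenced in 45 libraries that fall into 14 groups of 3, except 1 group of 6. The mice, of unstated sex, ate chow throughout, or a high-fat diet (HFD, S3282) for 6 weeks from 18 weeks of age, or HFD for 16 weeks from 8 weeks of age, so that the length of feeding and the age at its start cannot be told apart. On chow and on 16-week HFD there was a basal group without treatment and 1 group each at 15, 30, 60 and 120 min after 1 U/kg of insulin given intraperitoneally, with 6 libraries at 30 min on 16-week HFD. Each of the 3 diets also had a group without insulin that took metformin, an oral glucose-lowering drug, in drinking water at 270 mg/kg/day of lean body mass, and 6-week HFD had a basal group. Metformin started at 8 or 18 weeks of age, which the labels do not give per group, so its length may differ between diets. No label ties a library to an animal, a litter or a day, so the p-values measure the spread between these libraries, which may be technical.

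Macroautophagy encloses cytoplasm in a double membrane, the autophagosome, and delivers it to lysosomes. In the fasting liver it supplies amino acids and fatty acids. A protein kinase complex (ULK) starts the process, a lipid kinase complex around Beclin 1 marks the site, membrane is supplied through ATG9 and ATG2, and enzymes similar to those of ubiquitin transfer attach proteins of the LC3 and GABARAP family to the growing membrane. Receptors such as p62 (Sqstm1) and BNIP3 bind cargo and LC3 together. Insulin restrains autophagy through the kinase mTOR, and mTOR also holds the transcription factor TFEB out of the nucleus. The values here are messenger RNA levels and measure neither the proteins nor the flux of autophagy.

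Libraries held 18.2 to 50.3 M reads in genes (M, 1000000), and libraries of 1 group correlated at 0.960 to 0.991 over 54 pairs (Pearson, log2 CPM). CPM is the count per M reads after scaling by the trimmed mean of M-values. Libraries differed in how their levels tracked exon length: the Spearman correlation with length ran from -0.61 to -0.13 in the 9 metformin libraries, was -0.22 in replicate 1 of 16-week HFD basal, and lay between -0.08 and 0.29 in the other 35. The Spearman correlation with GC content was -0.29 to -0.08 in chow basal and -0.23 to -0.15 in 6-week HFD basal. In 16-week HFD basal it was 0.17 to 0.31. At 15 min of insulin it was -0.22 to -0.12 on chow and 0.13 to 0.33 on 16-week HFD. Diet and GC trend thus went together in these comparisons with 16-week HFD. At the later insulin times and with metformin the ranges on chow and 16-week HFD overlapped. In the group of 6 libraries (16-week HFD, insulin for 30 min) the GC correlation was 0.19 to 0.21 in replicates 1 to 3. It was -0.22 to -0.14 in replicates 4 to 6. There 19 of the 35 autophagy genes did not overlap between replicates 1 to 3 and replicates 4 to 6, beside 42.1% of the genes tested. Hepatocyte markers summed to 77391 to 97492 CPM in the basal groups, so the liver label holds. Markers of pancreatic acinar cells, a neighbouring tissue, summed to 303 to 1840 CPM in chow basal and to 9.92 to 180 CPM in 16-week HFD basal. Reads of 6 autophagy genes are uncertain because 20% or more of their 40-base words also occur in another gene: Atg4a (55.8%), Bnip3 (52.3%), Becn1 (38.3%), Atg9a (31.2%), Gabarapl1 (24.2%) and Bnip3l (22.3%). The libraries do not mark strand, so where exons overlap, reads of Atg4d and Becn1 cannot be told from those of Kri1 and Cntd1 on the opposite strand. Over all libraries 8779 reads were counted for Kri1 and 245 for Cntd1, where each library had at least 378 of Atg4d and 877 of Becn1. For 1700101I11Rik, the gene with most of the words shared with Gabarapl1, 105 reads were counted over all libraries. Each library had at least 6370 of Gabarapl1.

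Per kb of exon, the cargo receptor Sqstm1 and the LC3-family gene Gabarapl1 had the highest levels, with medians over the 45 libraries of 253 and 245 CPM per kb. Their ranges, 184 to 356 for Sqstm1 and 189 to 346 for Gabarapl1, overlapped almost entirely. Bnip3 followed at 166 CPM per kb, Gabarap at 147, Map1lc3b at 87.2 and Gabarapl2 at 59.8. Beclin 1 (Becn1) lay in the middle at 24.6 CPM per kb and was the steadiest, with a highest library 1.25 times the lowest. The lowest medians were those of Tfeb (2.67), Atg16l2 (2.66) and Atg10 (2.36), whose ranges overlapped. The first 8 places were all held by genes of the LC3 and GABARAP family or cargo receptors, and the ULK kinases, the lipid kinase complex and the conjugation enzymes ranked below them, as the plot of levels per kb shows.

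**Figure D1:**
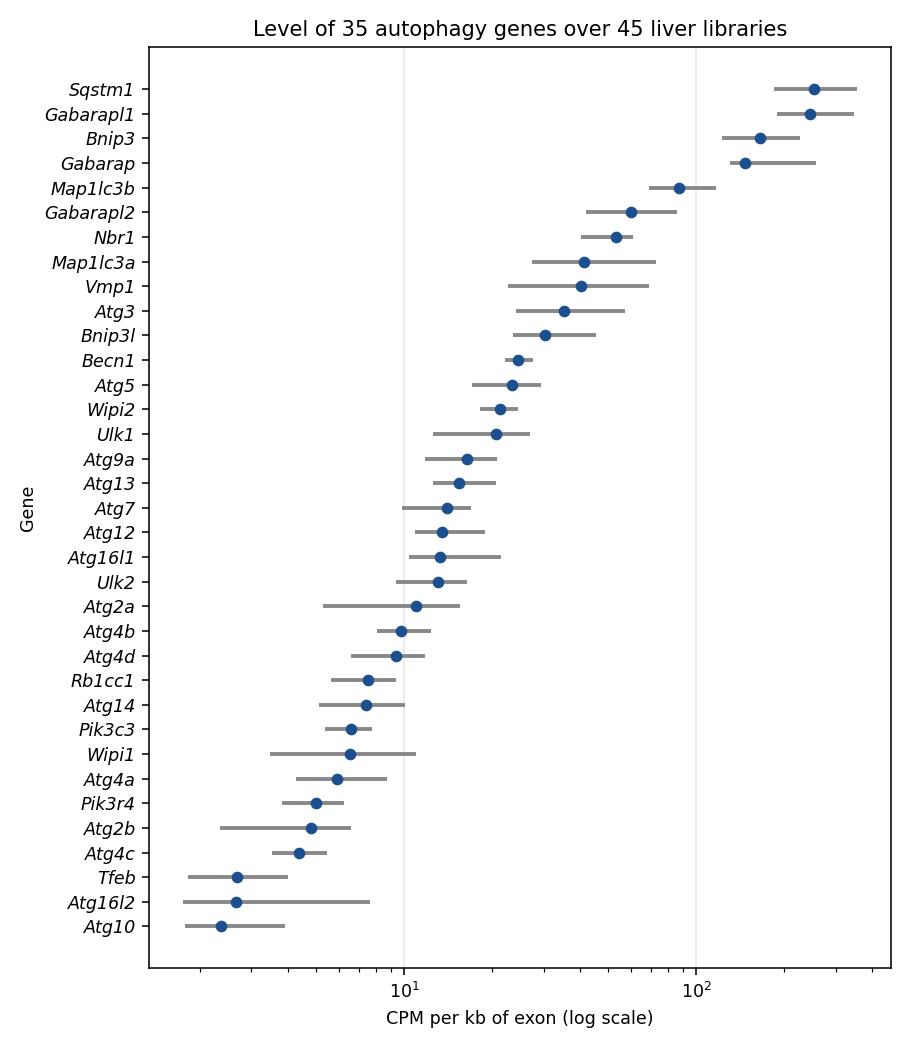
Level of each of the 35 autophagy genes per kb of exon over 45 liver libraries; the x axis is CPM per kb on a log scale, points are medians and lines run from the lowest to the highest library. Sqstm1 and Gabarapl1 lead at 253 and 245, and Atg10 is last at 2.36.

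After 16 weeks of HFD, basal liver had lower messenger RNA for 10 of the 35 autophagy genes and higher for 6, at a Benjamini-Hochberg adjusted p under 0.05 in edgeR's quasi-likelihood test, which is the meaning of "called" here. Of all genes tested, 32.3% were called in this comparison, 16.0% higher and 16.3% lower. The median log2 fold change was -0.01 over the 35 and 0.02 over all genes. After 6 weeks of HFD, 8 autophagy genes were lower and 1 was higher, where 11.0% of all genes were called, 5.98% higher and 5.03% lower. Both comparisons use the same 3 chow libraries. Between 16 and 6 weeks, 2 autophagy genes were called, both higher at 16 weeks, where 10.2% of all genes were called (4.18% higher). Fold changes below are on the log2 scale with their standard error, and adjusted p-values are over all 14067 genes. In bulk liver, fewer cells of a type and less RNA per cell cannot be told apart.

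The 16-week diet was compared with chow in 6 treatment states that share no library: basal, 15, 30, 60 and 120 min of insulin, and metformin. At 15 min 3 autophagy genes were called higher and 7 lower, beside 12.3% and 12.2% of all genes (24.4% in all). At 30 min 4 were higher and 13 lower (20.1% and 17.2% of all genes, 37.3% in all), and 3 and 12 without replicates 4 to 6. For the fit without these replicates the share of all genes is not given here. At 60 min 3 were higher and 10 lower (10.9% and 11.5%, 22.4% in all). At 120 min 1 was higher and 8 lower (14.5% and 13.6%, 28.2% in all). With metformin 2 were higher and 3 lower (11.2% and 9.25%, 20.4% in all). On 6-week HFD with metformin 1 gene was called against chow, lower, beside 4.43% of all genes (2.16% lower). Of the 35, Atg16l2 and Bnip3l were lower in all 6 comparisons, as were 281 of the 14067 genes tested (2.00%). Vmp1 and Gabarapl2 were lower in 5, so that 4 of 35 were lower in at least 5, beside 5.63% of all genes. Atg16l1 and Bnip3 were lower in 4, which made 6 of 35 in at least 4 (9.09% of all genes). In at least 3, 11 of 35 were lower (13.5% of all genes). Ulk2 was the 1 autophagy gene called higher in at least 3 of the 6 and was called in 5. Of all genes 5.01% were higher in at least 5. Averaged over the 5 states without metformin, 17 of the 35 were lower and 9 higher, where 63.0% of all genes were called (33.6% higher and 29.4% lower).

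**Figure D2:**
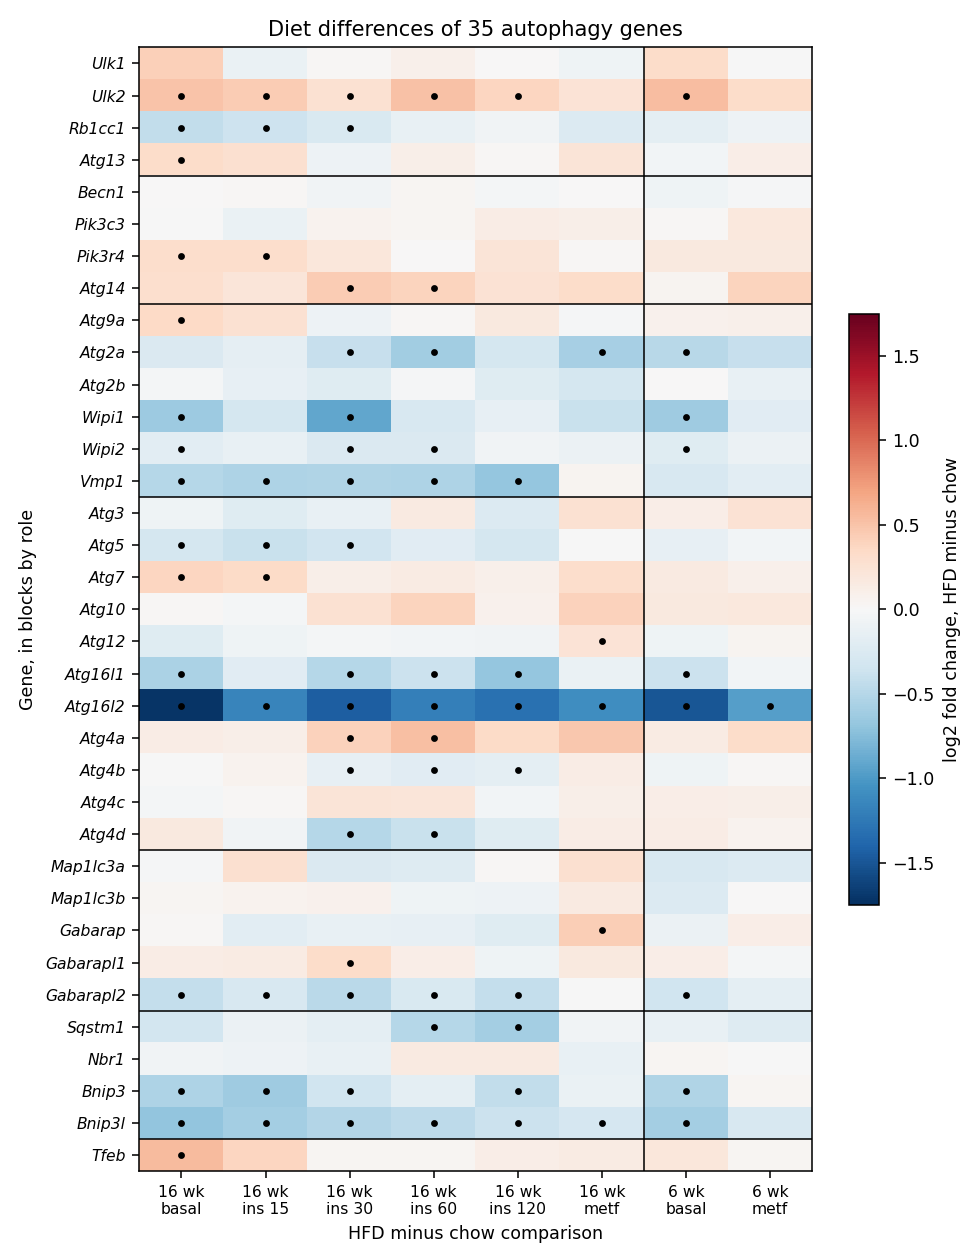
Log2 fold change of HFD minus chow for the 35 autophagy genes (rows, in blocks by role) in 6 comparisons at 16 weeks and 2 at 6 weeks (columns; ins, min of insulin; metf, metformin); blue is lower on HFD, red is higher, and a black dot marks a called gene. Atg16l2 is called lower in all 8 columns and Bnip3l in 7, and Ulk2 is called higher in 6.

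In the conjugation system, Atg16l2 had the largest diet difference of the 35 autophagy genes in basal liver. Atg16l2 and its paralog Atg16l1 encode scaffolds that bind the ATG12-ATG5 conjugate, and ATG16L1 directs LC3 to membranes. Atg16l2 lies on chromosome 7 (mm9, chr7:108438130-108450602, minus strand, 18 exons). Its level in chow basal was 13.8, 14.2 and 16.2 CPM. In 16-week HFD basal it was 5.3, 4.2 and 3.92 CPM, and in 6-week HFD basal 4.38, 5.63 and 5.55 CPM. Every HFD library lay below every chow library, the level fell by 69.5% at 16 weeks (-1.72 ± 0.18, adjusted p = 2.11e-08), and at 6 weeks the change was -1.50 ± 0.18, adjusted p = 9.84e-07. Between the 2 lengths of diet the change was -0.21 ± 0.18, adjusted p = 0.489, which was not called.

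The difference in Atg16l2 recurred under insulin. At 30 min the 3 chow libraries had 11.7, 11.6 and 16.5 CPM, and the 6 libraries on 16-week HFD ran from 3.79 to 6.19 (median 4.78) CPM (-1.44 ± 0.15, adjusted p = 9.18e-09). The log2 fold changes at 15, 60 and 120 min were -1.16 ± 0.18, -1.19 ± 0.18 and -1.31 ± 0.18. With metformin Atg16l2 was 12.2, 11.5 and 14.7 CPM on chow and 5.26, 7 and 5.76 CPM on 16-week HFD (-1.09 ± 0.18, adjusted p = 7.3e-05), and on 6-week HFD 6.16, 5.01 and 8.5 CPM (-0.96 ± 0.18, adjusted p = 0.00117). No library of an HFD group reached the lowest chow library of the same treatment state, and all 8 calls held under every alternative run. The acinar marker sums did not overlap between chow and 16-week HFD in basal liver. At 15 min they ran from 162 to 2811 (median 359) CPM on chow and from 14.2 to 19323 (median 25.6) CPM on 16-week HFD. The overlap at 15 min thus came from the highest HFD library alone. The part of acinar cells in the Atg16l2 values was not tested.

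Promoter sequence is shown for 3 genes with diet differences at both lengths of feeding in basal liver, Atg16l2 and Bnip3 (lower) and Ulk2 (higher), as the 250 bases before the transcription start in the RefSeq table for GRCm38.p6. This is another build than the mm9 of the counts. All 3 are on the minus strand and are printed 5′ to 3′ along the gene, Atg16l2 at chr7:101302089-101302338, Bnip3 at chr7:138909507-138909756 and Ulk2 at chr11:61855093-61855342. Capitals mark matches to the letters searched on both strands: CACGTG (the E-box read by TFEB and its relatives), ACGTG (the core of the hypoxia response element, which CACGTG contains), GTAAACA (the core read by the insulin-restrained FoxO factors) and TGACGTCA (the cAMP response element of the fasting-activated factor CREB, a motif added after the sequences had been read).
Atg16l2: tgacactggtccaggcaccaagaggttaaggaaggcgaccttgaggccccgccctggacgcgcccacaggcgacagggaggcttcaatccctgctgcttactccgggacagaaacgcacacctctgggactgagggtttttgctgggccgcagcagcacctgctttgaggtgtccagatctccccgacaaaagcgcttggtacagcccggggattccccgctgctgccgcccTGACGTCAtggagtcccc
Bnip3: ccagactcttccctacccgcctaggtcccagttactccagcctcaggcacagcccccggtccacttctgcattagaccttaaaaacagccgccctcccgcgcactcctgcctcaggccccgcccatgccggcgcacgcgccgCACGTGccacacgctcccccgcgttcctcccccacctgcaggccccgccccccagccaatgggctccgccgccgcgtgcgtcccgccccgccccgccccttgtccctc
Ulk2: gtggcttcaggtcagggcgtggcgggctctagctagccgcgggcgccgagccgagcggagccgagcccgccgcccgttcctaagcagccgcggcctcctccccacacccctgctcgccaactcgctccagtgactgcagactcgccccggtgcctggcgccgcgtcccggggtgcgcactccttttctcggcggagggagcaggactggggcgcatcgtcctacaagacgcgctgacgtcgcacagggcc
The Bnip3 window held 1 CACGTG, which ACGTG matches on both strands. The Atg16l2 window held 1 TGACGTCA, and the Ulk2 window none of the letters searched. The table had 35 promoter windows for 28 of the 35 genes. CACGTG occurred in 4 of the 35 windows (11.4%; Atg3, Atg5, Atg7 and Bnip3) and in 6.02% of all 32851 promoter windows. ACGTG occurred in 11 of the 35 (31.4%) and in 16.6% of all windows, GTAAACA in none of the 35 and in 3.17% of all windows, and TGACGTCA in Atg16l2 alone and in 1.55% of all windows. A match is a description of letters and not a binding site.

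Atg16l1 was lower in 4 of the 6 comparisons at 16 weeks. Basal levels were 57.6, 59.4 and 51 CPM on chow, 40.6, 37.4 and 36.1 on 16-week HFD and 38.9, 43.7 and 46.5 on 6-week HFD. Both HFD groups lay wholly below chow (-0.56 ± 0.10, adjusted p = 5e-05 at 16 weeks, and -0.38 ± 0.10, adjusted p = 0.00981 at 6 weeks). The 6-week call was lost without replicate 1 of 6-week HFD basal or replicate 2 of chow basal (-0.34 to -0.31, adjusted p 0.0642 to 0.086). At 120 min of insulin the 16-week change was -0.68 ± 0.10, adjusted p = 9.19e-06, and with metformin it was not called (-0.12 ± 0.10, adjusted p = 0.433).

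The other conjugation genes moved less. Atg5, the partner of ATG12, was lower at 16 weeks in basal liver (61.9, 56.3 and 58.3 CPM on chow, 52.1, 41.7 and 48.3 on HFD, -0.31 ± 0.12, adjusted p = 0.0455) and at 15 and 30 min of insulin (-0.39 ± 0.12 and -0.34 ± 0.10). The basal call was lost without replicate 2 or 3 of 16-week HFD basal or replicate 1, 2 or 3 of chow basal (-0.34 to -0.23, adjusted p 0.0645 to 0.226). That at 15 min was lost without replicate 2 of 16-week HFD insulin 15 min (-0.36, adjusted p = 0.0663), and that at 30 min without replicate 1 of chow insulin 30 min (-0.31, adjusted p = 0.0576). In the 30 min HFD group Atg5 was 41.6, 41.6 and 42.6 CPM in replicates 1 to 3 and 57.1, 57.3 and 54.8 in replicates 4 to 6. Without the latter the change was -0.56. Atg7, the E1-like activating enzyme, was higher instead, at 54.6, 48.1 and 43.5 CPM on chow and 58.5, 63 and 68.5 on 16-week HFD (0.38 ± 0.12, adjusted p = 0.0167). That call was lost without replicate 3 of 16-week HFD basal or replicate 2 or 3 of chow basal (0.30 to 0.37, adjusted p 0.0526 to 0.102). It was also lost with length and GC trends removed (0.26 ± 0.13, adjusted p = 0.132). At 15 min Atg7 was also higher (0.34 ± 0.12, adjusted p = 0.0411). The call was lost without replicate 1 or 3 of 16-week HFD insulin 15 min or replicate 1, 2 or 3 of chow insulin 15 min (0.22 to 0.36, adjusted p 0.0674 to 0.251). With trends removed it was lost too (0.20 ± 0.13, adjusted p = 0.287). The E2-like enzymes Atg3 (-0.07 ± 0.14) and Atg10 (0.03 ± 0.18) were not called in any of the 6 comparisons. For Atg3 at 30 min, HFD replicates 1 to 3 had 48.7, 54.2 and 51.3 CPM and replicates 4 to 6 had 69.1, 75.8 and 73.5. Chow had 71.7, 64.9 and 68 CPM, so the Atg3 value at 30 min averages HFD libraries of unlike level. Atg12, which ATG7 and ATG10 join to ATG5, was called in 1 of the 6, with metformin, where it was higher (0.24 ± 0.08, adjusted p = 0.0399). It lost that call without replicate 1 of 16-week HFD metformin or replicate 1 or 2 of chow metformin (0.18 to 0.22, adjusted p 0.111 to 0.18). In the average over the 5 states without metformin it was called lower instead (-0.086), and that call was lost in 16 of 43 alternatives.

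The 4 ATG4 proteases prime LC3-family proteins and strip them from membranes. Atg4d was lower on 16-week HFD at 30 min of insulin, with 28.8, 24.2 and 27.3 CPM on chow and from 16.8 to 20.2 (median 18.9) CPM on HFD (-0.51 ± 0.09, adjusted p = 6.79e-05), and at 60 min (-0.40 ± 0.11, adjusted p = 0.0072). That call was lost without replicate 3 of 16-week HFD insulin 60 min (-0.32, adjusted p = 0.0569). In basal liver its change was 0.17 ± 0.11, adjusted p = 0.221, which was not called. Atg4b was lower by small amounts at 30, 60 and 120 min (-0.14 ± 0.06, -0.20 ± 0.07 and -0.17 ± 0.07), and these calls were lost in 10 of 18, 5 of 14 and 9 of 14 alternatives. Single libraries that ended the calls were replicate 1, 2, 3 or 4 of 16-week HFD insulin 30 min or replicate 1 or 3 of chow insulin 30 min, replicate 1 or 2 of 16-week HFD insulin 60 min or replicate 1 or 2 of chow insulin 60 min, and replicate 1, 2 or 3 of 16-week HFD insulin 120 min or replicate 1, 2 or 3 of chow insulin 120 min. Atg4a was called higher at 30 and 60 min (0.40 ± 0.15 and 0.52 ± 0.18). Its 30 min value came from libraries of 2 levels, 12.2, 11.7 and 10.6 CPM in replicates 1 to 3 and 19.2, 17.8 and 18.7 CPM in replicates 4 to 6, and the change was 0.02 without the latter. The call at 30 min was lost without replicate 4, 5 or 6 of 16-week HFD insulin 30 min or replicate 1, 2 or 3 of chow insulin 30 min (0.32 to 0.46, adjusted p 0.0611 to 0.178). That at 60 min was lost without replicate 2 or 3 of 16-week HFD insulin 60 min or replicate 1 or 2 of chow insulin 60 min (0.36 to 0.55, adjusted p 0.0542 to 0.193). Atg4c was called in none of the 6.

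Among the cargo receptors, both mitophagy receptors of the BNIP3 pair were lower on HFD. BNIP3 and BNIP3L sit in the outer mitochondrial membrane and recruit LC3-family proteins, and Bnip3 is a textbook target of hypoxia-inducible factors. Bnip3l (chr14:67604077-67627714, mm9, minus strand) had basal levels of 137, 142 and 147 CPM on chow, 96.4, 97.5 and 88 on 6-week HFD and 89.8, 85.5 and 88.4 on 16-week HFD. Neither HFD group reached the chow range, and the level fell by 38.2% at 16 weeks (-0.69 ± 0.09, adjusted p = 2.84e-07) and by 33.9% at 6 weeks (-0.60 ± 0.09, adjusted p = 1.53e-05). After insulin the 16-week changes were -0.59 ± 0.09 at 15 min, -0.51 ± 0.07 at 30 min, -0.45 ± 0.09 at 60 min and -0.38 ± 0.09 at 120 min, and these 4 calls and the basal ones held in every alternative. With metformin the values were 103, 124 and 138 CPM on chow and 107, 93.7 and 96.6 on 16-week HFD, which overlapped (-0.29 ± 0.09, adjusted p = 0.0136). That call was lost without replicate 3 of chow metformin (-0.19, adjusted p = 0.157).

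Bnip3 was lower at both lengths of diet in basal liver. Chow libraries had 359.9, 372 and 380.3 CPM, 6-week HFD 253, 277 and 240.1 and 16-week HFD 283, 244 and 240.4, without overlap (-0.53 ± 0.12, adjusted p = 0.00301 at 6 weeks, -0.54 ± 0.12, adjusted p = 0.000704 at 16 weeks). The 16-week difference was also called at 15, 30 and 120 min of insulin (-0.63 ± 0.12, -0.35 ± 0.10 and -0.43 ± 0.12), and not at 60 min (-0.17 ± 0.12, adjusted p = 0.32). With metformin neither diet differed from chow at the threshold (-0.11 ± 0.12, adjusted p = 0.532 at 16 weeks, 0.04 ± 0.12, adjusted p = 0.905 at 6 weeks). The 30 min call was lost without replicate 1 of chow insulin 30 min (-0.30, adjusted p = 0.055). The 120 min call was lost without replicate 2 of 16-week HFD insulin 120 min (-0.33, adjusted p = 0.0718). Because 52.3% of the 40-base words of Bnip3 also occur elsewhere, part of its reads may belong to another locus.

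Sqstm1, the ubiquitin-binding receptor p62, had basal levels of 539.5, 550.2 and 507 CPM on chow, 462, 449.8 and 547 on 6-week HFD and 472, 398 and 407 on 16-week HFD. Every 16-week library lay below every chow library, and 6-week libraries overlapped chow, but neither difference was called (-0.32 ± 0.14, adjusted p = 0.0782 at 16 weeks and -0.13 ± 0.14, adjusted p = 0.631 at 6 weeks). It was lower on 16-week HFD at 60 and 120 min of insulin, where chow had 496, 681 and 622 CPM and HFD 368, 407 and 421 at 120 min (-0.59 ± 0.14, adjusted p = 0.00232), without overlap. The 60 min change was -0.49 ± 0.14, adjusted p = 0.0108. That call was lost without replicate 1 of chow insulin 60 min (-0.42, adjusted p = 0.0668). At 30 min Sqstm1 was not called, and chow had 579, 509 and 505 CPM. There HFD replicates 1 to 3 had 585, 533 and 532 CPM, and replicates 4 to 6 had 403, 403 and 374. Nbr1, the related receptor, was called in none of the 6 comparisons, and its basal value was -0.06 ± 0.09.

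**Figure D3:**
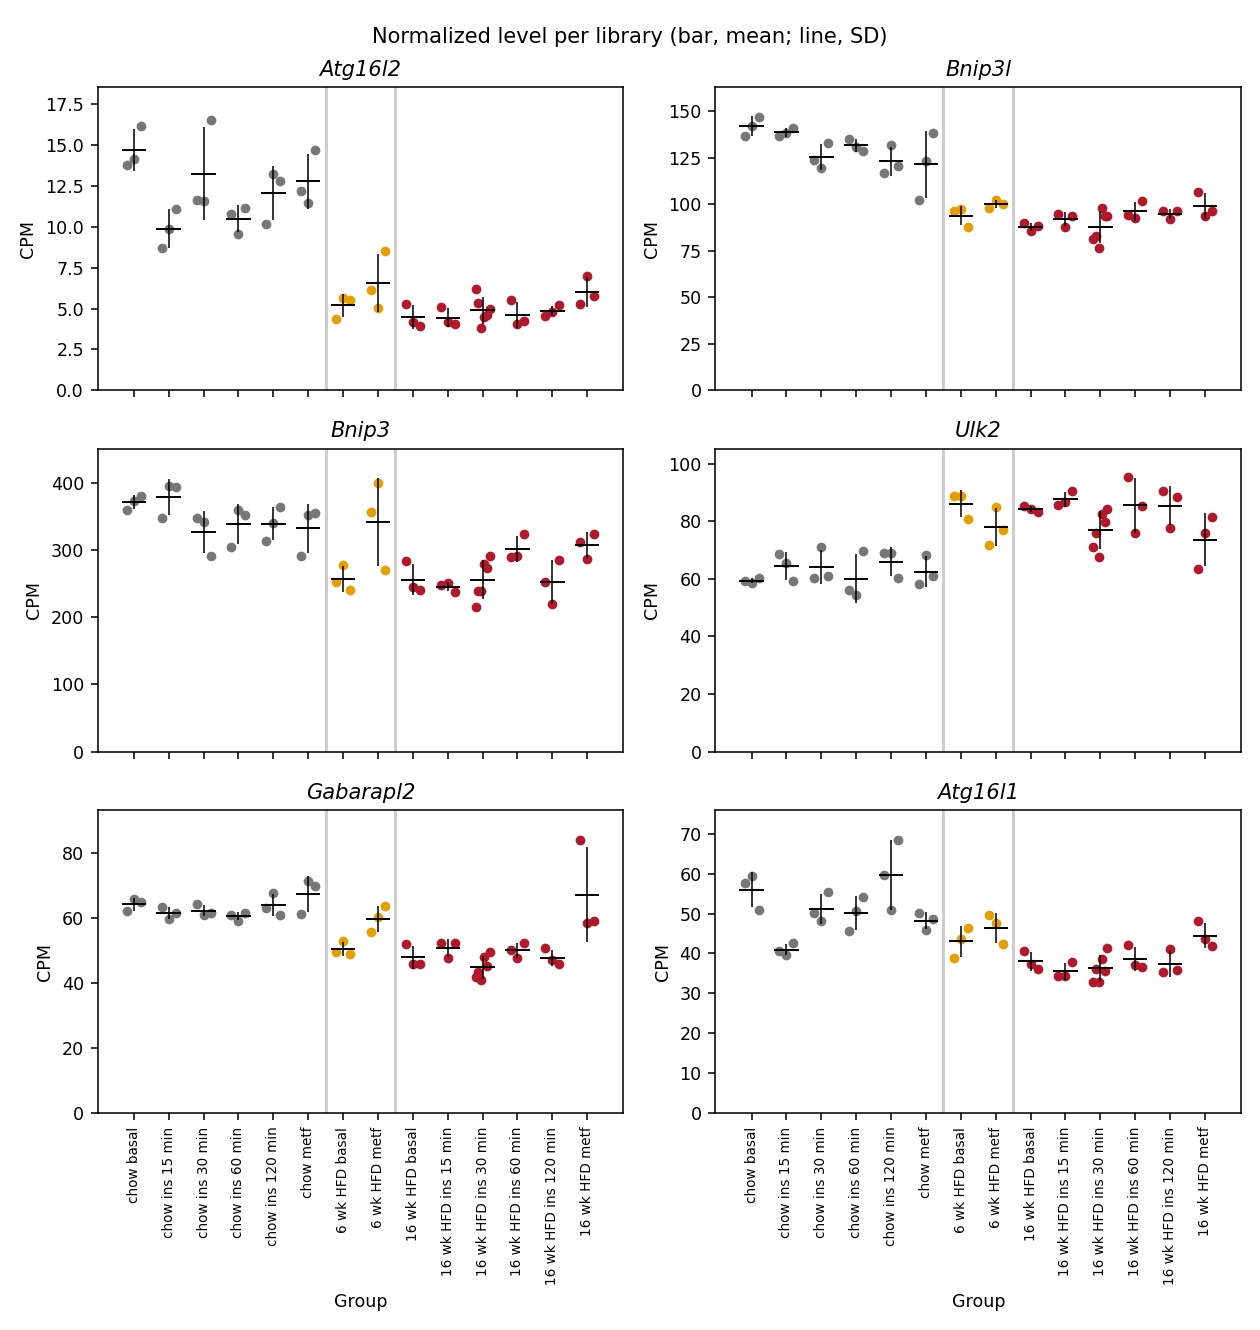
CPM of 6 autophagy genes in each of 45 libraries by group (x axis, 14 groups; ins, min of insulin; metf, metformin; grey chow, orange 6-week HFD, red 16-week HFD); points are libraries, bars are means and vertical lines are SD. Atg16l2 lies at 13.8 to 16.2 CPM in chow basal and at 3.92 to 5.3 CPM in 16-week HFD basal, Bnip3l, Bnip3, Gabarapl2 and Atg16l1 are also lower in HFD basal, and Ulk2 is higher.

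The ULK complex changed gene by gene. Ulk2, 1 of the 2 kinases that start autophagosome formation, had basal levels of 59.1, 58.6 and 60.2 CPM on chow, 88.9, 88.7 and 80.8 on 6-week HFD and 85.2, 84.1 and 83.3 on 16-week HFD. Both HFD groups lay above chow (0.51 ± 0.10, adjusted p = 0.000271 at 16 weeks, 0.54 ± 0.10, adjusted p = 0.000694 at 6 weeks), and these calls held in every alternative. It was higher on 16-week HFD at 15, 30, 60 and 120 min of insulin too (0.45 ± 0.10, 0.26 ± 0.09, 0.51 ± 0.10 and 0.37 ± 0.10). The 30 min groups overlapped. That call was lost without replicate 1 or 3 of chow insulin 30 min (0.22 to 0.23, adjusted p 0.0983 to 0.121). Without replicates 4 to 6 the 30 min change was 0.17, not called. The 120 min call was lost without replicate 3 of chow insulin 120 min (0.31, adjusted p = 0.0519). With metformin the 16-week change was 0.24 ± 0.10, adjusted p = 0.0993, and 0.46 ± 0.09, adjusted p = 0.000657 once length and GC trends were removed. Its paralog Ulk1 had 87.9, 77.2 and 97.6 CPM in chow basal and 127, 131 and 92 in 16-week HFD basal, which overlapped (0.41 ± 0.17, adjusted p = 0.0575), and 119, 105 and 105 at 6 weeks (0.33 ± 0.17, adjusted p = 0.228).

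Rb1cc1, which encodes the complex scaffold FIP200, was lower at 16 weeks (56.6, 65.9 and 65.8 CPM on chow, 43.9, 44.9 and 51.4 on HFD, -0.42 ± 0.10, adjusted p = 0.000794) and at 15 and 30 min of insulin (-0.36 ± 0.10 and -0.27 ± 0.08). The last call was lost without replicate 2 of chow insulin 30 min (-0.21, adjusted p = 0.0822). Its exons sum to 7046 bases and are poor in GC (40.3%), and with length and GC trends removed the basal change was -0.08 ± 0.07, adjusted p = 0.378 and the 15 min change -0.15 ± 0.07, adjusted p = 0.0952, neither called. Atg13, the bridge between kinase and scaffold, was higher on 16-week HFD than on chow (0.33 ± 0.11, adjusted p = 0.0195) and than on 6-week HFD (0.37 ± 0.11, adjusted p = 0.0233). Its basal libraries had 50.7, 48.9 and 50.8 CPM on chow, 44.8, 51.8 and 48.8 on 6-week HFD and 66.7, 63.4 and 58.3 on 16-week HFD, the last above both others. The call against chow was lost without replicate 1 or 2 of 16-week HFD basal or replicate 2 of chow basal (0.28 to 0.32, adjusted p 0.053 to 0.0775). That against 6 weeks was lost without replicate 1 or 2 of 16-week HFD basal or replicate 1 or 3 of 6-week HFD basal (0.32 to 0.38, adjusted p 0.0531 to 0.123).

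In the Beclin 1 lipid kinase complex, Becn1 and Pik3c3 were called in none of the 6 comparisons at 16 weeks, and Pik3r4 and Atg14 in 2 each, always higher. Becn1 had basal levels of 49.9, 50.2 and 51.5 CPM on chow, 47.5, 48.3 and 48.6 on 6-week HFD and 50.9, 51.7 and 49.8 on 16-week HFD (0.01 ± 0.06, adjusted p = 0.93 at 16 weeks, -0.07 ± 0.06, adjusted p = 0.501 at 6 weeks). Over the 6 comparisons at 16 weeks its log2 fold change stayed between -0.06 and 0.03. Pik3c3, the catalytic lipid kinase VPS34, changed by 0.00 ± 0.09 in basal liver. Pik3r4, its regulatory subunit, was higher at 16 weeks in basal liver, with 22.6, 20.5 and 21.1 CPM on chow and 24.9, 26.7 and 28.2 on HFD (0.31 ± 0.09, adjusted p = 0.00891), and at 15 min (0.30 ± 0.09, adjusted p = 0.0164). That call was lost without replicate 1 or 3 of 16-week HFD insulin 15 min or replicate 2 of chow insulin 15 min (0.28 to 0.29, adjusted p 0.0507 to 0.0573). Atg14, the subunit that directs the complex to autophagy, was called higher at 30 min (0.45 ± 0.11, adjusted p = 0.00187) and at 60 min (0.39 ± 0.12, adjusted p = 0.0236). Its 60 min call was lost without replicate 2 or 3 of 16-week HFD insulin 60 min or replicate 2 or 3 of chow insulin 60 min (0.32 to 0.39, adjusted p 0.053 to 0.106). In basal liver it had 25.3, 28 and 24.2 CPM on chow and 34.6, 34.8 and 26 on 16-week HFD (0.30 ± 0.12, adjusted p = 0.06).

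Of the genes that supply membrane, Vmp1 was lower in the 5 comparisons without metformin. VMP1 is an endoplasmic reticulum scramblase needed for the early membrane. Chow basal libraries had 119, 112 and 131 CPM and 16-week HFD basal 98, 75.5 and 83.6, without overlap (-0.49 ± 0.17, adjusted p = 0.0232), and 6-week HFD basal had 91.5, 92.8 and 113, which overlapped chow (-0.28 ± 0.17, adjusted p = 0.307). The basal 16-week call was lost without replicate 2 or 3 of 16-week HFD basal or replicate 3 of chow basal (-0.48 to -0.41, adjusted p 0.0658 to 0.114). It was also lost with length and GC trends removed (-0.31 ± 0.15, adjusted p = 0.119). At 120 min of insulin chow had 126, 166 and 131 CPM and 16-week HFD 88.8, 86.5 and 90.2 (-0.67 ± 0.17, adjusted p = 0.00347), and that call and the one at 30 min (-0.53 ± 0.14) held in every alternative. Vmp1 was also called lower at 15 min (-0.54 ± 0.17) and at 60 min (-0.54 ± 0.17). The former was lost without replicate 3 of 16-week HFD insulin 15 min or replicate 2 of chow insulin 15 min (-0.51 to -0.45, adjusted p 0.0571 to 0.0921) and with trends removed (-0.40 ± 0.15, adjusted p = 0.0565). The latter was lost without replicate 2 of 16-week HFD insulin 60 min or replicate 1 of chow insulin 60 min (-0.38 to -0.37, adjusted p 0.158 to 0.166). With metformin the 2 diets overlapped (0.05 ± 0.17, adjusted p = 0.861). The exons of Vmp1 contain the microRNA gene Mir21 on the same strand, over 92 bases.

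Wipi1 and Wipi2, which read the lipid that the Beclin 1 complex makes, were both lower on 16-week HFD in basal liver (-0.64 ± 0.19, adjusted p = 0.00882 and -0.18 ± 0.07, adjusted p = 0.0376). Wipi1 had 15.5, 15.9 and 17.6 CPM on chow, 12.1, 10.1 and 9.71 on 6-week HFD and 10.8, 10.3 and 10.3 on 16-week HFD, without overlap of chow with either. At 30 min of insulin it was lower too (-0.91 ± 0.16, adjusted p = 4.02e-05), at 17.1, 20 and 17.2 CPM on chow and from 6.29 to 11.8 (median 10.2) CPM on HFD. Its 6-week call (-0.62 ± 0.18, adjusted p = 0.0254) was lost without replicate 2 or 3 of 6-week HFD basal or replicate 2 or 3 of chow basal (-0.63 to -0.56, adjusted p 0.0632 to 0.105). Wipi2 was also lower at 30 and 60 min of insulin (-0.25 ± 0.06 and -0.25 ± 0.07). The basal call of Wipi2 at 16 weeks was lost without replicate 2 or 3 of 16-week HFD basal or replicate 1 or 2 of chow basal (-0.17 to -0.16, adjusted p 0.101 to 0.131). That at 6 weeks (-0.21 ± 0.07, adjusted p = 0.0466) was lost without replicate 1 or 2 of 6-week HFD basal or replicate 1, 2 or 3 of chow basal (-0.24 to -0.15, adjusted p 0.0616 to 0.282).

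Atg2a and Atg2b encode lipid transfer proteins. Atg2a was lower on 16-week HFD at 30 and 60 min and with metformin (-0.40 ± 0.13, -0.61 ± 0.15 and -0.58 ± 0.15), and on 6-week HFD in basal liver (81.2, 77.4 and 82.7 CPM on chow, 55.3, 54.7 and 62.6 on HFD, -0.48 ± 0.15, adjusted p = 0.0309). The 6-week call was lost without replicate 1 or 2 of 6-week HFD basal or replicate 1, 2 or 3 of chow basal (-0.51 to -0.45, adjusted p 0.0656 to 0.115), the 30 min call without replicate 1 of chow insulin 30 min (-0.38, adjusted p = 0.0566), and the metformin call without replicate 1 of 16-week HFD metformin (-0.40, adjusted p = 0.0866). Without replicates 4 to 6 the 30 min change was -0.19. Atg2b was called in none of the 6. Atg9a, the membrane scramblase of the seed vesicles, was higher on 16-week HFD in basal liver (62.6, 57.1 and 57.1 CPM on chow, 78.4, 73.5 and 73.6 on HFD, 0.35 ± 0.10, adjusted p = 0.00985), and not once length and GC trends were removed (0.14 ± 0.10, adjusted p = 0.302).

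In the LC3 and GABARAP family, whose members coat the autophagosome, Gabarapl2 was lower and the other 4 were not called in basal liver at 16 weeks. Gabarapl2 had basal levels of 62.1, 65.9 and 64.8 CPM on chow, 49.6, 52.9 and 48.9 on 6-week HFD and 52, 45.9 and 45.8 on 16-week HFD. Chow lay above both (-0.42 ± 0.09, adjusted p = 0.000698 at 16 weeks, -0.35 ± 0.09, adjusted p = 0.013 at 6 weeks). The 6-week call was lost without replicate 1 of 6-week HFD basal or replicate 2 of chow basal (-0.33, adjusted p 0.0525 to 0.0589). It was also lower at 15, 30, 60 and 120 min of insulin (-0.28 ± 0.09, -0.47 ± 0.08, -0.27 ± 0.09 and -0.42 ± 0.09). The 15 min call was lost without replicate 2 of 16-week HFD insulin 15 min or replicate 1 or 3 of chow insulin 15 min (-0.27 to -0.23, adjusted p 0.069 to 0.119). The 60 min call was lost without replicate 1 or 2 of 16-week HFD insulin 60 min or replicate 1, 2 or 3 of chow insulin 60 min (-0.29 to -0.23, adjusted p 0.0534 to 0.136). With metformin the difference was -0.01 ± 0.09, adjusted p = 0.978, and -0.26 ± 0.06, adjusted p = 0.00299 with length and GC trends removed, which was called.

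Map1lc3b, the LC3 gene used as an autophagosome marker, had basal levels of 146, 143 and 155 CPM on chow, 118, 126 and 133 on 6-week HFD and 154, 161 and 139.7 on 16-week HFD. It did not differ from chow at the threshold (0.04 ± 0.09, adjusted p = 0.792 at 16 weeks, -0.24 ± 0.09, adjusted p = 0.0837 at 6 weeks). Its 16-week level was above the 6-week level (0.27 ± 0.09, adjusted p = 0.0459). The call was lost in 12 of 15 alternatives, among them, for single libraries, those without replicate 1 or 2 of 16-week HFD basal or replicate 1, 2 or 3 of 6-week HFD basal (0.23 to 0.32, adjusted p 0.0518 to 0.195). Gabarapl1 had 361, 413 and 377 CPM in chow basal and 416, 362 and 476 in 16-week HFD basal (0.12 ± 0.12, adjusted p = 0.462), and was called higher on HFD at 30 min and in no other of the 6 comparisons (0.33 ± 0.11, adjusted p = 0.0149). This call was lost without replicate 3 of chow insulin 30 min (0.26, adjusted p = 0.105). Gabarap (0.01 ± 0.11) and Map1lc3a (-0.01 ± 0.16) were not called in basal liver. Gabarap was higher on 16-week HFD with metformin (0.43 ± 0.11, adjusted p = 0.00592). The call was lost without replicate 1 of 16-week HFD metformin (0.18, adjusted p = 0.188).

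Tfeb, the transcription factor for autophagy and lysosome genes, was higher on 16-week HFD in basal liver, with 6.67, 5.18 and 6.26 CPM on chow and 9.04, 9.21 and 8.55 on HFD (0.56 ± 0.17, adjusted p = 0.0126). The 6-week libraries had 7.71, 6.58 and 6.62 CPM (0.20 ± 0.17, adjusted p = 0.508). The 16-week call was lost without replicate 2 of chow basal (0.46, adjusted p = 0.0768). It was also lost with length and GC trends removed (0.26 ± 0.14, adjusted p = 0.164). Tfeb was called in none of the other 5 states.

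Cell type markers moved with the 16-week diet in the insulin groups. Of 7 Kupffer cell and macrophage markers 3, 6, 1 and 5 were higher at 15, 30, 60 and 120 min. Of 6 endothelial markers 0, 4, 3 and 3 were higher at these times, of 6 stellate cell and fibroblast markers 3, 4, 3 and 3, and of 6 lymphocyte markers 1, 1, 0 and 0. Of 5 bile duct markers 1 was lower at 120 min. Of 6 hepatocyte markers 1, 4, 2 and 2 were lower and 1, 1, 1 and 0 higher. The 1 red blood cell marker tested was higher in all 6 comparisons at 16 weeks and in 6-week HFD basal. In basal liver no macrophage, endothelial, acinar, bile duct or lymphocyte marker was called at 16 weeks, 2 stellate cell markers were higher and 1 lower, and 1 hepatocyte marker was higher and 1 lower. Of 6 skeletal muscle markers 4 were lower, with sums of 0.584 to 145 CPM in chow (median 1.23) and 0.353 to 0.968 CPM in HFD. The chow range thus reached 145 CPM through 1 library. In 6-week HFD basal the summed muscle markers ran from 3.68 to 1197 CPM, and all 6 were called lower at 16 than at 6 weeks. Their part in the autophagy results was not tested.

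After insulin, 0 to 2 of the 35 autophagy genes were called at each time and diet. The 4 times on each diet share their 3 basal libraries. On chow, 1 gene was called at 15 min (Atg16l1, lower) and 1 at 60 min (Atg4d, higher), where 1.13% and 1.39% of all genes were called (0.448% lower and 0.960% higher). None was called on chow at 30 or 120 min, where 0.0711% and 5.08% of all genes were. On 16-week HFD 2 were called at 30 min, Atg4d and Atg9a, both lower, beside 3.55% of all genes (1.77% lower). None was called there at 15, 60 or 120 min, where 0.00%, 0.00711% and 0.00% of all genes were. The 30 min group on 16-week HFD had 6 libraries and the other times 3. A difference of a given size is thus easier to call at 30 min. In the comparisons with no call, 4 (chow, 30 min), 9 (chow, 120 min), 2, 2 and 1 (HFD, 15, 60 and 120 min) of the 35 had an unadjusted p under 0.05, and DESeq2 called 0 in each. At 120 min on chow the deposited normalized values gave 2 calls, and removal of the length and GC trends gave 1. Here and below, the share of all genes at that unadjusted p is not given, so these counts have no background beside them.

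On chow, Atg16l1 went from 57.6, 59.4 and 51 CPM to 40.6, 39.7 and 42.6 CPM at 15 min (-0.45 ± 0.10, adjusted p = 0.014). The groups did not overlap. The call was lost without replicate 1 or 2 of chow basal or replicate 2 or 3 of chow insulin 15 min (-0.48 to -0.41, adjusted p 0.0611 to 0.129). At 120 min the values were 59.7, 50.8 and 68.5 CPM, back across the basal range (0.09 ± 0.10, adjusted p = 0.715). Atg4d went from 22.1, 20.2 and 21.1 CPM to 28.8, 27.3 and 28.4 CPM at 60 min (0.41 ± 0.11, adjusted p = 0.0383), and its other changes on chow were 0.30 ± 0.11, 0.34 ± 0.11 and 0.31 ± 0.11 at 15, 30 and 120 min, not called. Its 60 min call was lost without replicate 1, 2 or 3 of chow basal or replicate 1, 2 or 3 of chow insulin 60 min (0.38 to 0.45, adjusted p 0.0522 to 0.209).

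On 16-week HFD, Atg4d went from 27.2, 23.9 and 20.5 CPM in basal liver to a range from 16.8 to 20.2 (median 18.9) CPM at 30 min (-0.34 ± 0.09, adjusted p = 0.0349). Atg9a went from 78.4, 73.5 and 73.6 CPM to a range from 56.2 to 64.1 (median 59.9) CPM (-0.33 ± 0.09, adjusted p = 0.0369). Neither gene overlapped between basal and 30 min. The Atg4d call was lost without replicate 1 or 2 of 16-week HFD basal or replicate 1 or 4 of 16-week HFD insulin 30 min (-0.34 to -0.24, adjusted p 0.061 to 0.369). The Atg9a call was lost without replicate 1 or 2 of 16-week HFD basal or replicate 1, 3 or 4 of 16-week HFD insulin 30 min (-0.34 to -0.30, adjusted p 0.0626 to 0.282). Without replicates 4 to 6 at 30 min, 5 of the 35 were called, 1 higher and 4 lower. The share of all genes in that fit is not given here, so the 5 are not read as particular to these genes. Leaving out 1 library at a time in this comparison gave 0 to 5 of the 35, beside 0 to 814 of all genes.

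At 120 min, the latest time, Tfeb and Ulk1 had the largest estimates on chow of the 8 genes chosen to be followed there whatever their result, and neither was called (0.39 ± 0.17, adjusted p = 0.224 for Tfeb, 0.42 ± 0.17, adjusted p = 0.159 for Ulk1). Ulk1 had 89.5, 136 and 126 CPM on chow at 120 min and 109, 119 and 124 on 16-week HFD. The other changes on chow were 0.23 ± 0.17 for Vmp1, 0.17 ± 0.14 for Sqstm1, 0.08 ± 0.12 for Gabarapl1, 0.06 ± 0.06 for Becn1, 0.02 ± 0.09 for Map1lc3b and -0.13 ± 0.12 for Bnip3. On 16-week HFD all 8 changes at 120 min lay between -0.12 ± 0.12 (Gabarapl1) and 0.05 ± 0.17 (Vmp1). The difference between the diets in the response to insulin was called for none of the 35 at any of the 4 times, where 0.00711%, 0.00%, 0.00% and 0.839% of all genes were called at 15, 30, 60 and 120 min. Of the 35, 3, 4, 8 and 3 had an unadjusted p under 0.05 for that difference, and DESeq2 called 0, 1, 0 and 0.

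**Figure D4:**
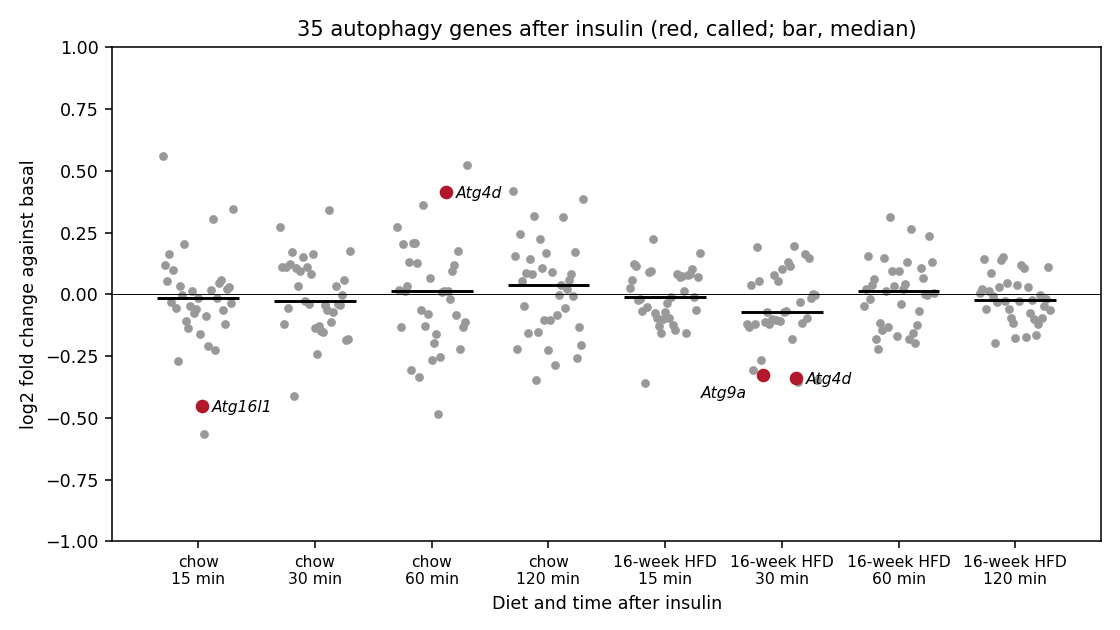
Log2 fold change after insulin against basal for the 35 autophagy genes (points) at 4 times on chow and on 16-week HFD; bars are medians and red points with names are called genes. The 4 called points are Atg16l1 and Atg4d on chow and Atg4d and Atg9a on 16-week HFD.

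Metformin left the autophagy genes on chow without a call, where 1.94% of all genes were called. Of the 35, 5 had an unadjusted p under 0.05, and DESeq2 called 1. The largest estimate was that of Gabarapl1, from 361, 413 and 377 to 437, 509.8 and 578 CPM without overlap (0.40 ± 0.12, adjusted p = 0.0668). Ulk1 (0.12 ± 0.17), Becn1 (0.05 ± 0.06), Map1lc3b (0.17 ± 0.09), Sqstm1 (0.19 ± 0.14), Bnip3 (-0.16 ± 0.12), Tfeb (0.23 ± 0.18) and Vmp1 (0.01 ± 0.17) were not called.

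On 6-week HFD metformin raised 2 of the 35, where 3.17% of all genes were called (1.93% higher). Map1lc3b went from 118, 126 and 133 to 171, 161 and 169 CPM, all above basal (0.41 ± 0.09, adjusted p = 0.00693). This call was lost without replicate 1 of 6-week HFD basal (0.36, adjusted p = 0.0833). It was also lost with length and GC trends removed (0.27 ± 0.08, adjusted p = 0.0793). Bnip3 went from 253, 277 and 240.1 to 356, 399 and 269 CPM, where 1 metformin library lay within the basal range (0.41 ± 0.12, adjusted p = 0.0467), and lost its call in 11 of 14 alternatives, among them those without replicate 1, 2 or 3 of 6-week HFD basal or replicate 1 or 2 of 6-week HFD metformin (0.29 to 0.47, adjusted p 0.0556 to 0.266). Not called were Ulk1 (-0.22 ± 0.17), Becn1 (0.10 ± 0.06), Gabarapl1 (0.26 ± 0.12), Sqstm1 (0.10 ± 0.14), Tfeb (0.07 ± 0.17) and Vmp1 (0.10 ± 0.17).

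On 16-week HFD metformin gave 13 calls, 9 higher and 4 lower, where 28.4% of all genes were called, 16.9% higher and 11.5% lower. The genes called higher were Gabarapl2, Atg12, Gabarapl1, Atg3, Vmp1, Sqstm1, Map1lc3b, Atg4b and Gabarap, and those called lower were Atg9a, Atg2a, Pik3r4 and Atg2b. Direction went with exon length. Of the 18 genes with exons up to 2827 bases 8 were higher and none lower, with a median of 0.35, and of the 17 longer genes 1 was higher and 4 lower, with a median of -0.04. The shares of all genes of these lengths are not given here. Over all genes tested, the Spearman correlation with length was -0.61, -0.27 and -0.34 in the 16-week HFD metformin libraries. The split by length is therefore not read as particular to the autophagy genes. With the libraries' trends over length and GC removed, 5 of the 35 were called, all higher, and the medians were 0.17 and 0.08. With only the length trend removed 9 were called, 7 higher (3 of the shorter and 4 of the longer genes) and 2 lower (1 of each), and both medians were 0.16. Without replicate 1 of both groups 5 were called, and in a fit of only these 6 libraries 0. Leaving out replicate 1 of 16-week HFD metformin alone left 4, and replicate 2 of 16-week HFD basal alone 7. Over all genes these 2 leave-outs left 1574 and 2522 calls, where 3992 genes were called with all libraries. The shares of all genes under the other alternatives are not given here.

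The 5 genes called with the trends removed were Sqstm1 (0.40 ± 0.14, adjusted p = 0.0426), Gabarapl1 (0.35 ± 0.12, adjusted p = 0.0464), Wipi2 (0.28 ± 0.07, adjusted p = 0.00925), Atg4b (0.27 ± 0.07, adjusted p = 0.00665) and Atg12 (0.26 ± 0.07, adjusted p = 0.00898). Sqstm1 went from 472, 398 and 407 CPM in basal liver to 592, 643 and 519.8 CPM with metformin, all above basal (0.46 ± 0.14, adjusted p = 0.0145). Its call was lost without replicate 2 or 3 of 16-week HFD basal or replicate 1 or 2 of 16-week HFD metformin (0.39 to 0.45, adjusted p 0.0544 to 0.0715). Gabarapl1 went from 416, 362 and 476 to 614, 589 and 506 CPM, without overlap (0.45 ± 0.12, adjusted p = 0.00575). Its call was lost without replicate 2 of 16-week HFD basal (0.35, adjusted p = 0.0603). Atg12 went from 34, 31.2 and 33 to 47.2, 43.2 and 41.2 CPM (0.42 ± 0.08, adjusted p = 0.000396), and its call was lost only in the fit of these 6 libraries. Wipi2 was not called before the trends were removed (0.08 ± 0.07, adjusted p = 0.414). Atg4b changed by 0.20 ± 0.07, adjusted p = 0.023 before removal. The call was lost without replicate 2 or 3 of 16-week HFD basal or replicate 1 of 16-week HFD metformin (0.15 to 0.19, adjusted p 0.0755 to 0.175).

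The other 9 calls were lost with the trends removed. Gabarapl2 went from 52, 45.9 and 45.8 to 84.1, 58.6 and 59 CPM, where replicate 1 stood above the others (0.49 ± 0.09, adjusted p = 0.000312, and 0.09 ± 0.06, adjusted p = 0.35 with trends removed). Gabarap had 202, 163 and 155 and 289, 180.3 and 182 CPM, again with replicate 1 of metformin highest (0.32 ± 0.11, adjusted p = 0.027), and reached -0.02 ± 0.06, adjusted p = 0.865 with trends removed. Atg2b, with the longest exons (10173 bases), had 47, 46.8 and 48.5 and 23.9, 48.4 and 40.5 CPM, with replicate 1 of metformin lowest (-0.33 ± 0.12, adjusted p = 0.0392, and 0.01 ± 0.08, adjusted p = 0.93 with trends removed). Map1lc3b changed by 0.29 ± 0.09, adjusted p = 0.0164 (0.17 ± 0.08, adjusted p = 0.154 with trends removed) and Vmp1 by 0.55 ± 0.17, adjusted p = 0.0138 (0.42 ± 0.15, adjusted p = 0.0589). Leaving out replicate 1 of 16-week HFD metformin alone ended the calls of Map1lc3b, Vmp1, Gabarap, Atg2b, Atg2a, Atg3 and Pik3r4. Without replicate 2 of 16-week HFD basal those of Vmp1, Gabarap and Atg2b were lost, and without replicate 3 those of Map1lc3b, Pik3r4, Gabarap and Atg2b. Without replicate 1 of 16-week HFD basal that of Atg2b was lost. With the replicate number as a block, Atg5 (0.30 ± 0.10, adjusted p = 0.0277) and Atg4a (0.37 ± 0.14, adjusted p = 0.0405) were called higher too. Of the genes followed whatever their result, Ulk1 (-0.37 ± 0.17), Becn1 (0.05 ± 0.06), Bnip3 (0.26 ± 0.12) and Tfeb (-0.18 ± 0.17) were not called. In the same comparison 4 of 6 hepatocyte markers were higher, 3 of 6 endothelial and 3 of 6 stellate cell markers lower, and their part was not tested.

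**Figure D5:**
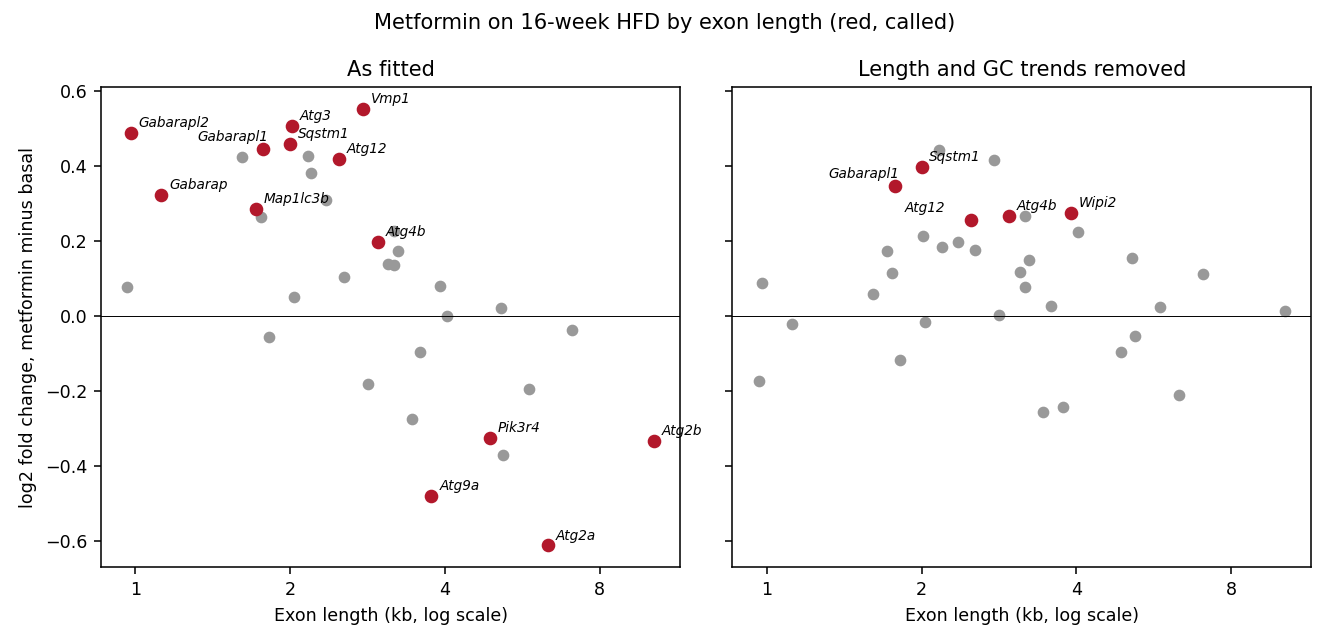
Log2 fold change of metformin minus basal on 16-week HFD against exon length (kb, log scale) for the 35 autophagy genes, as fitted (left) and with each library's length and GC trends removed (right); red points with names are called genes. On the left 8 of the 18 shorter genes are called higher and 4 of the 17 longer ones lower, and on the right 5 genes are called, all higher. The shares of all genes of these lengths are not given.

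The effect of metformin differed between 16-week HFD and chow for Atg12 (0.44 ± 0.12, adjusted p = 0.0297) and Bnip3l (0.40 ± 0.12, adjusted p = 0.0476), both higher on HFD, where 4.96% of all genes were called (3.23% higher). Bnip3l went from 137, 142 and 147 to 103, 124 and 138 CPM on chow and from 89.8, 85.5 and 88.4 to 107, 93.7 and 96.6 CPM on 16-week HFD, so the diets lay closer together with metformin. With length and GC trends removed neither difference was called (0.26 ± 0.10, adjusted p = 0.136 for Atg12, 0.34 ± 0.11, adjusted p = 0.0814 for Bnip3l). Leaving out 1 library at a time ended the Bnip3l call in 8 of 12 cases and the Atg12 call in 5, and gave counts of 0 to 6, with 0 without replicate 2 of 16-week HFD basal, replicate 1 of 16-week HFD metformin, replicate 2 of chow basal, or replicate 1 or 2 of chow metformin. Over all genes these leave-outs gave 89 to 1381 calls. Atg16l1 (0.44 ± 0.14, adjusted p = 0.0574) and Gabarapl2 (0.42 ± 0.13, adjusted p = 0.0584) missed the threshold. Between 6-week HFD and chow the difference was called for none of the 35, where 0.0427% of all genes were called, with 4 of the 35 at an unadjusted p under 0.05 and 0 called by DESeq2.

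The rest of the pathway was read from 3 further lists. Shares of all genes called were those given above, 32.3% in basal liver at 16 weeks (16.0% higher, 16.3% lower) and 11.0% at 6 weeks. Of 37 other autophagy genes tested, 7 were higher and 13 lower in 16-week HFD basal, led by the endoplasmic reticulum receptor Tex264 (0.59 ± 0.10, adjusted p = 1.61e-05), the WIPI relative Wdr45l (0.63 ± 0.12, adjusted p = 0.000167) and Sh3glb1 (-0.39 ± 0.08, adjusted p = 0.000242). Of 49 lysosome genes 14 were higher and 4 lower, led by the chloride transporter Clcn7 (0.93 ± 0.10, adjusted p = 2.11e-08) and the proteases Ctsl (-1.06 ± 0.14, adjusted p = 6.14e-07) and Ctsb (0.65 ± 0.09, adjusted p = 1.99e-06). Of 43 upstream regulators 8 were higher and 9 lower, led by Fnip2, a partner of folliculin (1.42 ± 0.22, adjusted p = 6.81e-06). The medians of the 3 lists were 0.04, 0.13 and -0.04, beside 0.02 over all genes. At 6 weeks the counts were 5 higher and 1 lower, 2 and 3, and 5 and 2, with medians of -0.05, -0.02 and 0.03 beside 0.01 over all genes, and Ctsl was again lower (-0.91 ± 0.14, adjusted p = 2.99e-05). On 16-week HFD at 15, 30, 60 and 120 min of insulin, 10, 14, 6 and 7 lysosome genes were higher and 5, 5, 6 and 4 lower. Of all genes 24.4%, 37.3%, 22.4% and 28.2% were called. The lysosome medians were 0.03, 0.08, -0.003 and -0.03. With metformin 11 were higher and 3 lower (20.4% of all genes called), with a median of 0.17.

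At 120 min of insulin on chow, where 5.08% of all genes and no core autophagy gene were called, 3 other autophagy genes were higher and 2 lower, led by Trp53inp1 (2.12 ± 0.36, adjusted p = 0.000343) and the endoplasmic reticulum receptor Fam134b (1.20 ± 0.23, adjusted p = 0.00113). Of the upstream regulators 7 were higher and 1 lower, among them Zkscan3, a repressor of autophagy genes (-0.83 ± 0.11, adjusted p = 4.43e-05), and the folliculin gene Flcn (0.82 ± 0.15, adjusted p = 0.000937), and of the lysosome genes 1 was higher and 2 were lower. On 16-week HFD none of the 3 lists had a call at 120 min, where 0.00% of all genes were called, with 4, 3 and 6 genes at an unadjusted p under 0.05. With metformin on 16-week HFD, where 28.4% of all genes were called (16.9% higher, 11.5% lower), the counts were 9 higher and 5 lower for other autophagy genes, 14 and 8 for lysosome genes and 4 and 9 for upstream regulators, with the short proton pump subunit Atp6v1f (0.59 ± 0.09, adjusted p = 1.48e-05) first among lysosome genes. These counts are from the fit with the length and GC trends left in.

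Over the means of the 14 groups, genes among the most like Sqstm1 in log2 CPM, of 9335 compared, were 8430410A17Rik (Pearson r of 0.954), Oxa1l (0.952), Prmt1 (0.939) and Gnmt (0.938). Those most like Gabarapl1 were Polr2f (0.919), 5730494N06Rik (0.895), Nudt6 (0.892), Sdf2 (0.892) and Ppp1ca (0.892). The 14 points share the libraries and their length and GC trends, so these values are a description.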

How the data were processed

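Poly-A RNA of mouse liver was sequenced in 45 libraries with paired reads from an unstranded kit, per the labels' protocols. The authors deposited raw read counts per gene, from TopHat 1.4.0 alignments on mm9 and HTSeq counting, per the submitters' processing notes. They also deposited a normalized signal (counts after CQN and DESeq2 1.0.18, per the file headers and processing notes) for the insulin series, used here as an alternative. Columns of other kinds in the deposited tables were gene names.

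The counts were fitted with edgeR 4.0.16 (quasi-likelihood F test, trimmed mean of M-values, 1 coefficient per group over all 45 libraries, filterByExpr with a minimum count of 10) in R 4.3.3. Benjamini-Hochberg adjustment ran over the 14067 genes tested in each of 27 comparisons, with a threshold of 0.05, and the fit was tested on simulated data. Each gene was given its standard error as the absolute log2 fold change over the root of F. Length and GC trends were each library's smoothed deviation over exon length and GC content (span 0.3). Alternatives were RLE scaling, no filter, DESeq2 1.42.0, fits of only the groups compared, a replicate block, trend removal, leaving out libraries, and limma 3.58.1 on log2 (signal + 1). Fitting without replicate 1 of 16-week HFD basal and metformin, and removing only the length trend, were chosen after seeing the data. Python 3.11.15 made tables and figures.

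The 35 genes, the lists and the tests were chosen with earlier results of these data known. Per comparison the text names called genes, at most the 8 with the smallest adjusted p in full, and 8 genes whatever their result (Ulk1, Becn1, Map1lc3b, Gabarapl1, Sqstm1, Bnip3, Tfeb and Vmp1) in the basal diet, metformin and 120 min insulin comparisons, and the remaining genes only to account for all 35. Of other lists at most 3 genes are named, those with the smallest adjusted p. Replicate numbers come from the labels, which do not say what they share. Same-numbered libraries deviated together (every correlation above 0.1) for metformin on 6-week HFD (0.41, 0.16 and 0.30) and on 16-week HFD (0.24, 0.15 and 0.12), and in no other comparison of 2 groups. Libraries held 18.2 to 50.3 M reads. The lowest genes had few of them (56 to 245 reads per library for Atg10), so counting error adds to replicate spread there. Gene positions are on mm9, and promoters come from RefSeq on GRCm38.p6. A gene that the rule on similar patterns names is not reported here.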

Additional observations from a re-analysis of the deposited data

Results flagged for a closer look

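At 30 min of insulin on 16-week HFD, Atg14 reached 31.6 CPM in replicate 2, where the next library had 26.7 CPM. The gap was 0.663 of the range of the 6 libraries. Such a gap arises by chance in about 1 in 20 groups. All 35 autophagy genes were searched for it in this group, at both ends of the range. At that rate 1 such gap among 35 genes is not unusual.

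The effect of metformin on 16-week HFD minus that on chow was 0.44 on the log2 scale for Atg12 and 0.40 for Bnip3l (edgeR's quasi-likelihood test, adjusted p = 0.0297 and 0.0476). With length and GC trends removed the values were 0.26 and 0.34, and neither was called.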

How the results depend on the processing

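Over the 27 comparisons, 129 pairs of gene and comparison were called. Across 2692 alternative values for them the call was kept in 2310 and lost in 375, and the sign changed in 7. Of the pairs 57 kept the call in every alternative. Of 816 pairs not called, 83 were called in at least 1 alternative. The sign changes were in Gabarap with metformin on 16-week HFD (-0.021 with length and GC trends removed, -0.033 with the replicate block as well, -0.027 with only the length trend removed), Atg2b in the same comparison (0.014, 0.0037 and 0.040) and Atg9a in the averaged diet comparison (-0.015 with trends removed and the replicate block). The causes were not tested.

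Of 242 counts under alternatives that leave out no single library, 182 stayed within 1.5 times and 60 did not. The shares of all genes called under these alternatives are not given here. A moved count is therefore not read as particular to the autophagy genes. The 60 were as follows. With length and GC trends removed, the count went from 2 to 1 for 16 against 6 weeks, 9 to 14 for the 16-week diet at 120 min, 5 to 9 for the 16-week and 1 to 4 for the 6-week diet under metformin, 1 to 0 for insulin at 60 min and 0 to 1 at 120 min on chow, 0 to 2 for metformin on chow, 2 to 0 on 6-week HFD and 13 to 5 on 16-week HFD, and 2 to 0 for the metformin difference between 16-week HFD and chow. With the replicate block added to this, the same counts were 1, 14, 10, 4, 0, 1, 2, within 1.5 times on 6-week HFD, 4 and 0, and insulin at 30 min on 16-week HFD went from 2 to 7 and its difference from chow from 0 to 1. With only the length trend removed, 16 against 6 weeks gave 1, the 6-week diet under metformin 3, insulin at 120 min on chow 2 and at 30 min on 16-week HFD 5, metformin on chow 1 and on 6-week HFD 0, and the metformin difference 4. With the replicate block alone, which leaves out replicates 4 to 6 at 30 min, the 6-week diet under metformin gave 2, insulin at 30 min on 16-week HFD 5 and its difference from chow 1. The paired metformin counts were 2 on 6-week HFD and 15 on 16-week HFD. Fits of only the groups compared gave 0 for 16 against 6 weeks, 7 for the 16-week diet at 60 min and 1 under metformin, 2 for insulin at 15 min on chow and 0 at 30 min on 16-week HFD, 1 and 0 for metformin on 6-week and 16-week HFD, and 0 for the metformin difference. DESeq2 gave 4 for the 6-week diet under metformin, 4 for insulin at 30 min on 16-week HFD, 1 for its difference from chow, 1 for metformin on chow and 4 for the metformin difference. RLE scaling gave 1 for 16 against 6 weeks, 1 for metformin on 6-week HFD and 4 for the metformin difference, and no filter gave 1 for each of these and 0 for insulin at 60 min on chow. The deposited normalized values gave 0 for insulin at 60 min and 2 at 120 min on chow, and 0 at 30 min on 16-week HFD. Without replicates 4 to 6 at 30 min, insulin gave 5 and its difference from chow 1. Without replicate 1 of 16-week HFD basal and metformin, 16 against 6 weeks gave 1, insulin at 30 min on 16-week HFD 0, metformin on 16-week HFD 5 and the metformin difference 0.

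Leaving out 1 library at a time gave 11 to 15 for the 16-week diet in basal liver, 4 to 8 for the 6-week diet, 0 to 2 for 16 against 6 weeks, and 7 to 9, 11 to 17, 8 to 12 and 7 to 8 for the 16-week diet at 15, 30, 60 and 120 min. Under metformin it gave 4 to 8 for the 16-week and 1 to 2 for the 6-week diet, and 23 to 26 for the averaged diet. Insulin on chow gave 0 to 1 at 15 min, 0 at 30 and 60 min and 0 to 2 at 120 min, and on 16-week HFD 0 to 5 at 30 min and 0 at the other times. Metformin gave 0 to 1 on chow, 0 to 2 on 6-week HFD and 4 to 15 on 16-week HFD. The differences between diets gave 0 to 1 for insulin at 30 and at 60 min, 0 at 15 and 120 min, 0 to 6 for metformin at 16 weeks and 0 at 6 weeks. Calls over all genes moved too. They ran from 3422 to 4116 for the 16-week and from 771 to 1308 for the 6-week diet in basal liver. For insulin at 30 min on 16-week HFD they ran from 0 to 814, and for metformin on that diet from 1574 to 4555. The 6-week diet count in basal liver of 9 fell to 4 without replicate 2 of chow basal and to 5 without replicate 1 of 6-week HFD basal. The 16-week counts fell to 11 at 30 min without replicate 1 of chow and to 8 at 60 min without replicate 1 of chow or replicate 2 of HFD, and that under metformin rose to 8 without replicate 2 of HFD. What same-numbered libraries share beyond the number is not given by the labels for any comparison. Depth limits the lowest genes most: a library held as few as 56 reads of Atg10, 85 of Atg16l2 and 97 of Tfeb.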
